A study of Homo sapiens with 12 samples.

Results

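Transcripts of 10 genes whose proteins hold back the growth kinase complex mTORC1 were followed in HD-MyZ, a human line established from Hodgkin lymphoma. The genes were taken by name: DDIT4, DDIT4L, SESN1, SESN2, SESN3, DEPTOR, TSC1, TSC2, AKT1S1 and EIF4EBP1. They were chosen with earlier results of these data known. All 10 were among the 18852 genes measured, and 14 probes read them. Where a gene had several probes, the brightest was used. Cells were left without drug (control) or treated over 24 hours with perifosine at 10 µM, sorafenib at 5 µM or the combination of these doses. Each of the 4 groups had 3 arrays, named A, B and C. Perifosine is an alkylphospholipid that inhibits AKT, a kinase upstream of mTORC1, and sorafenib blocks RAF kinases and a group of receptor tyrosine kinases. All groups share the same cell line, and the labels name no vehicle for the control group. Whether replicates came from separate cultures is not stated in the labels, so the p-values cover only a spread between samples that may be technical.

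mTORC1 is a kinase complex on the lysosome that promotes protein and lipid synthesis when growth factors, amino acids and energy are plentiful. Growth factor signals reach it through AKT, which inactivates the TSC1-TSC2 complex, the brake on the activating GTPase RHEB, and which phosphorylates AKT1S1 (PRAS40), an inhibitor bound to the complex itself. DDIT4 (also called REDD1) and the sestrins are stress-induced genes whose products restrain mTORC1 through TSC2 and through the amino acid sensing machinery. In lymphoid tumours the AKT-mTORC1 axis is a known driver of growth and a drug target.

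Transcript levels are given as the deposited normalized intensity on a linear scale. By their range the values look free of background subtraction, so changes of dim genes may be understated. The arrays read transcripts, and neither proteins nor mTORC1 activity were measured in these data. The median intensity over all probes and arrays was 322, the range 170 to 71906, and a mean under 512 was found for 69.9% of probes. Precision is limited by the number of arrays. On 3 arrays (control C, sorafenib B and combination A) the correlation with their group mates was lower by 0.0086 to 0.0307 than the mates' correlation with each other. Results are therefore given with all 12 arrays and with the 9 others. Of 9 Hodgkin cell markers 5 had a mean intensity of at least 512, with CD30 (TNFRSF8), CCL17, IRF4 and GATA3 below. All measured markers of B cells (4), T cells (4) and monocytes or macrophages (5) lay below it as well, while 3 of 5 fibroblast markers (COL1A1, COL1A2 and DCN) and KRT19 among 5 epithelial markers lay above. The summed intensity of the 5 fibroblast markers ran from 27332 to 36232 in controls and from 24039 to 28466 with perifosine. It ran from 59348 to 75039 with sorafenib and from 58891 to 72896 with both drugs, so it moved with sorafenib. COL1A2, at 19934 to 64687, made up most of this sum, and COL3A1 and LUM stayed between 221 and 414 on all arrays. The summed intensity of the 5 epithelial markers, mostly KRT19, ran from 3905 to 5476 in controls, from 4269 to 5477 with perifosine, from 4964 to 7393 with sorafenib and from 6315 to 7519 with both drugs. The part of these markers in the results below was not tested.

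A gene is said here to have risen or fallen where limma gave an adjusted p (Benjamini-Hochberg, over all 18852 genes of the comparison) under 0.05. Where arrays of groups are said below not to overlap, the share of all genes that did so was not counted. Such a separation is therefore no support for a change that did not pass. With all 12 arrays, DDIT4 was the 1 member of 10 to pass with perifosine alone, where 0.297% of all genes passed. It was also the 1 member to pass with sorafenib alone, where 2.25% of all genes did. With both drugs DDIT4 and SESN2 rose, which makes 2 of 10 against 1.82% of all genes. Since the members were chosen with earlier results known, neither these counts nor the medians below give independent support for a response of the set. When the combination was compared with perifosine, DDIT4 rose again and alone, against 2.2% of all genes. Between the combination and sorafenib 0 members passed and so did 0% of all genes by limma, although 643 genes had an unadjusted p under 0.05. The interaction sets the log2 change by perifosine on top of sorafenib against that by perifosine alone, as the first minus the second. Here 0 members passed, against 0.0159% of all genes, and 921 genes had an unadjusted p under 0.05.

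In the 9 arrays more members passed in the 4 comparisons that had any, and so did more of all genes. With perifosine 2 members rose, DDIT4 and SESN2, against 1.55% of all genes. With sorafenib EIF4EBP1 joined these, which makes 3 against 4.65%, and with both drugs the same 3 rose against 5.9%. The combination against perifosine had rises of DDIT4 and EIF4EBP1 and a fall of AKT1S1, where 6.92% of all genes passed. The combination against sorafenib again had 0 members and 0% of all genes, with 1051 genes at an unadjusted p under 0.05. The interaction had 0 members against 0.0106%, with 1443 genes at an unadjusted p under 0.05. The members' median log2 change with both drugs was 0.27 in 12 arrays, beside -0.0011 over all genes, with perifosine 0.15 beside -0.0018, and with sorafenib 0.20 beside 0.0026. These 3 comparisons share their control arrays.

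**Figure D1:**
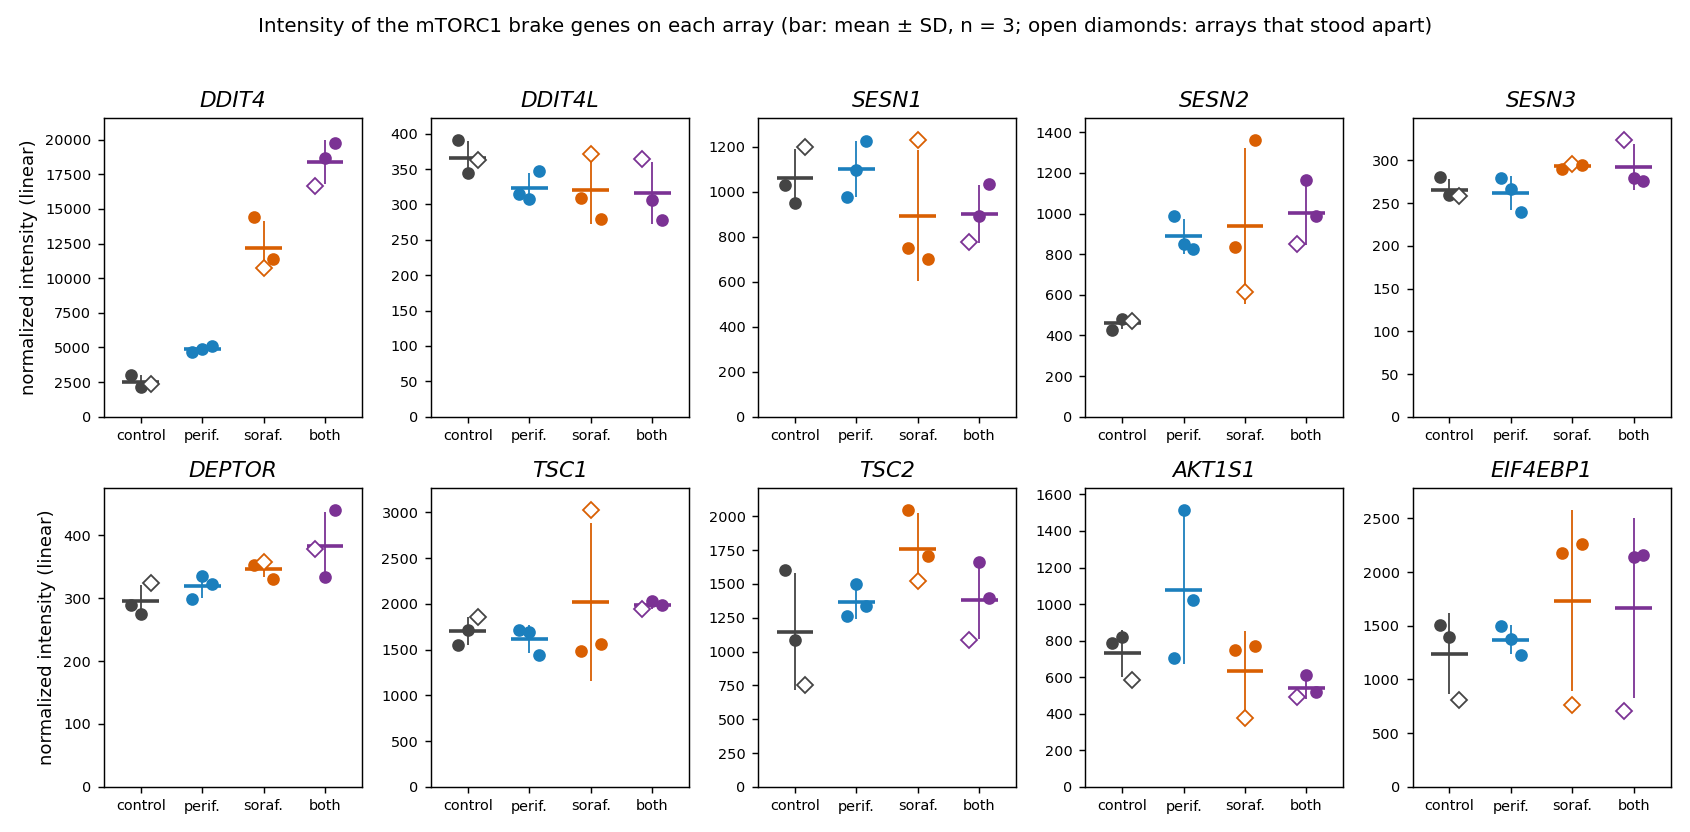
Normalized intensity (linear axis from 0, no unit) of the 10 genes on each array, in the control, perifosine, sorafenib and combination groups. Horizontal bars are means and vertical lines ± SD (n = 3), and open diamonds mark control C, sorafenib B and combination A. DDIT4 rises from 2143 to 3044 in controls to 16634 to 19775 with both drugs, and EIF4EBP1 has its 3 lowest values on the open diamonds.

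DDIT4 encodes a small protein, made under hypoxia, starvation and endoplasmic reticulum stress, that promotes TSC1-TSC2 activity and so lowers mTORC1 signalling. Its intensity on control arrays A, B and C was 3044, 2143 and 2379. With perifosine it was 4641, 4862 and 5113. With sorafenib it was 14386, 10763 and 11384, and with both drugs 16634, 18654 and 19775. The 4 groups did not overlap and stood in the order control, perifosine, sorafenib, combination. The group means ± SD (n = 3) were 2522 ± 467, 4872 ± 236, 12178 ± 1938 and 18354 ± 1592. With perifosine DDIT4 rose 1.95-fold, or 0.96 as a log2 change (SE 0.15, limma adjusted p = 0.0208). Leaving out any perifosine array, or control B or C, ended that call, where the adjusted p reached 0.137. DDIT4 also missed the threshold after normexp background correction (adjusted p = 0.0548 by limma) and with the replicate letters fitted as blocks (0.0534). The log2 change stayed between 0.86 and 1.11 in all 21 alternatives.

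Sorafenib raised DDIT4 4.84-fold (log2 2.28, SE 0.15, adjusted p = 3.06e-05 by limma), and both drugs 7.34-fold (log2 2.88, SE 0.15, adjusted p = 6.8e-06). Both calls held in 21 of 21 alternatives, with log2 changes of 2.15 to 2.42 and of 2.77 to 3.02. Against perifosine alone the combination was higher by 1.91 (SE 0.15, adjusted p = 6.2e-05), again in 21 of 21 alternatives. The combination exceeded sorafenib alone by a log2 value of 0.60 with a 95% interval of 0.28 to 0.92, without overlap of the arrays, but the limma adjusted p was 0.999 (0.00172 unadjusted), so this step did not pass. The interaction was -0.36 with an interval of -0.82 to 0.09. Sorafenib and perifosine alone were not tested against each other. DDIT4 differed little on the arrays that stood apart, by -0.10, -0.25 and -0.21 from the group mates on the log2 scale.

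Since DDIT4 and SESN2 were the members that rose in the fit to 12 arrays, the RefSeq windows around their annotated starts (GRCh38.p14, 250 bases before to 50 after, each on the + strand) are shown. They lie at chr10:72273674-72273973 for DDIT4 and chr1:28259268-28259567 for SESN2. Capitals mark the motif ACGTG, the core of the hypoxia response element. A 30-base stretch of the TSC2 window, at chr16:2047864-2047893 on the + strand, is added because it holds the core TGATGNAA of the C/EBP-ATF response element, bound by ATF4 and its partners, here in capitals.
DDIT4: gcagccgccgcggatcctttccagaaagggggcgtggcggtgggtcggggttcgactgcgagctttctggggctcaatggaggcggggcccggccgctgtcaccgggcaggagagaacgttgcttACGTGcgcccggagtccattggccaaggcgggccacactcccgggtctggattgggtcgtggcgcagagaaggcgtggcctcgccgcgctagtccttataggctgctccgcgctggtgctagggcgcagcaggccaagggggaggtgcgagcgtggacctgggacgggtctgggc
SESN2: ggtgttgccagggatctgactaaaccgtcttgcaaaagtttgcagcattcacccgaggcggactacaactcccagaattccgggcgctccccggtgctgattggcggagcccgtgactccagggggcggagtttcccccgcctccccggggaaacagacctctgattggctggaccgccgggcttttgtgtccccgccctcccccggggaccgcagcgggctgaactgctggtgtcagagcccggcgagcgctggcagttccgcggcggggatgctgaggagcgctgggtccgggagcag
TSC2: gccccgtcacgTGATGCAAggatcgccggc

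Windows were searched for 7 of the members (DDIT4, DDIT4L, SESN1, SESN2, SESN3, TSC1 and TSC2). They made 10 windows in all, since SESN1 has several starts and so does TSC2. Member windows on 1 chromosome were left out of the search, while the larger set of windows used below for comparison kept that chromosome. No window of DEPTOR, AKT1S1 or EIF4EBP1 was searched. On both strands, TGATGNAA was found in 1 of the 10 windows, that of TSC2 at 110 bases before the start, and in 3.62% of 35116 windows of the same length. ACGTG was found in 2, those of DDIT4 at 125 bases before the start and of TSC2, and in 21.4% of all windows. In TSC2 it was read on both strands at 114 and 113 bases before the start and overlaps the other motif. TGTTTAC, the core bound by FOXO factors, was found in 0 of the 10 and in 3.42% of all. DDIT4 rose and its window has an ACGTG, SESN2 rose and its window has none of the 3 motifs, and TSC2, whose window holds 2 of them, passed in no comparison. These are matches of letters in a short window and show neither binding nor its absence.

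SESN2 encodes sestrin 2, a stress-induced leucine sensor that restrains mTORC1 through the GATOR complexes. On control arrays A, B and C its intensity was 427, 481 and 469. With perifosine it was 985, 852 and 827. With sorafenib it was 836, 612 and 1360, and with both drugs 850, 1166 and 986. All 9 treated arrays lay above all 3 controls, and the 3 treated groups overlapped one another. Means ± SD (n = 3) were 459 ± 28.6, 888 ± 85.2, 936 ± 384 and 1001 ± 158. The log2 change was 0.95 with perifosine (SE 0.23, adjusted p = 0.183 by limma), 0.95 with sorafenib (adjusted p = 0.0609) and 1.11 with both (adjusted p = 0.0345). SESN2 therefore rose with both drugs, 2.16-fold, and missed the threshold with either alone in this fit. The fit shares a spread between groups, and the log2 SD of SESN2 was 0.58 with sorafenib, 0.091 in controls and 0.14 with perifosine. SESN2 passed with perifosine when only perifosine and control arrays were fitted (adjusted p = 0.0101 by limma). It also passed with array weights (0.0128), without sorafenib B (0.0228) or C (0.0355) and in the 9 arrays, and in no other alternative. Sorafenib arrays enter this comparison only through the shared spread.

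The call with both drugs was lost in 10 of 21 alternatives, among them each control, perifosine or combination array left out (adjusted p up to 0.125). Over the 9 arrays SESN2 rose with perifosine (log2 0.97, adjusted p = 0.0169), with sorafenib (1.23, adjusted p = 0.00438) and with both drugs (1.24, adjusted p = 0.00321), by limma. Sorafenib B was 0.80 below its group mates on the log2 scale, and leaving out sorafenib B alone gave SESN2 a log2 change of 1.22 with sorafenib (adjusted p = 0.00694). With sorafenib SESN2 also passed after normexp correction (adjusted p = 0.0482 by limma), with the filter at log2 9 (0.0463) and with array weights (0.00128). The combination differed from perifosine by 0.16, with a 95% interval of -0.34 to 0.67 (adjusted p = 0.862 by limma). It differed from sorafenib by 0.16, with an interval of -0.35 to 0.67 (adjusted p = 0.999). The interaction for SESN2 was -0.79, with an interval of -1.51 to -0.07 and an adjusted p of 0.991 by limma. Thus the perifosine step was 0.95 without sorafenib and 0.16 with it, a difference that did not pass over all genes.

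SESN1 and SESN3, the other sestrins, passed in no comparison, with 12 or with 9 arrays. SESN1, known as a p53 target, was at 1030, 948 and 1200 in controls, 976, 1097 and 1225 with perifosine, 751, 1228 and 703 with sorafenib, and 776, 890 and 1033 with both drugs. The sorafenib array at 1228 is replicate B, which stood apart, and the 2 others lay below every control. SESN1 had a log2 change of -0.28 with sorafenib in 12 arrays (interval -0.72 to 0.15, adjusted p = 0.581) and of -0.44 in 9 (interval -0.74 to -0.15, adjusted p = 0.0868 by limma). With perifosine SESN1 was at 0.054 and with both drugs at -0.24. SESN3, known as a FOXO target, stayed between 240 and 323 on every array, where 28.8% of all probes were dimmer on average, so a low level and none cannot be told apart. All 3 sorafenib arrays (290, 296 and 295) lay above all controls (280, 259 and 258). The log2 changes of SESN3 against control lay between -0.024 and 0.14.

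DDIT4L encodes a relative of DDIT4 (REDD2) that is best known in muscle, where it also lowers mTORC1 activity. Its intensity was 391, 344 and 363 in controls and lay between 279 and 372 on the treated arrays, dim values that 53.3% of the probes did not reach. The log2 change was -0.18 with perifosine, -0.20 with sorafenib and -0.22 with both drugs, with adjusted p values of 0.91, 0.544 and 0.583 by limma. DDIT4 itself had rises of up to 2.88 while the interval for DDIT4L with both drugs was -0.51 to 0.071. At such dim values, apparently with no background subtracted, a change of DDIT4L may be understated or missed. Over the 9 arrays DDIT4L was at -0.33 with both drugs (interval -0.60 to -0.056, adjusted p = 0.156).

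**Figure D2:**
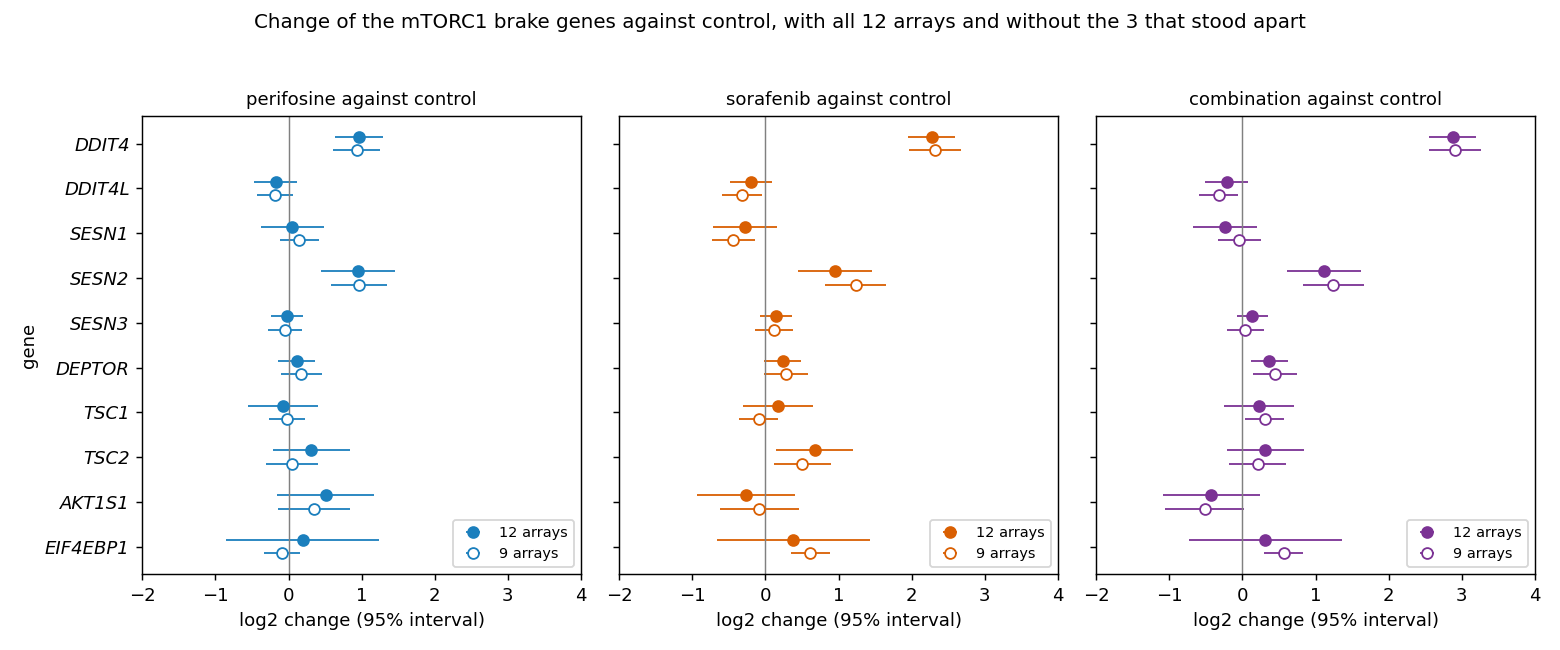
Log2 change against control (x axis, with 95% intervals from limma) of each of the 10 genes (y axis) with perifosine, sorafenib or both drugs. Filled points use 12 arrays and open points the 9 left without control C, sorafenib B and combination A. DDIT4 stands at 0.96, 2.28 and 2.88, SESN2 near 1 in each panel, and the interval of EIF4EBP1 is narrower in the 9 arrays.

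DEPTOR and AKT1S1 encode inhibitors that sit on the mTOR kinase complexes themselves. DEPTOR was dim, at 289, 275 and 324 in controls, 300, 335 and 322 with perifosine, 352, 358 and 331 with sorafenib, and 378, 334 and 440 with both drugs. The controls lay near 276, the densest intensity, so a low level and none are hard to tell apart there. For DEPTOR every sorafenib and combination array lay above every control, but how many of all genes did so was not counted. The log2 change of DEPTOR was 0.11 with perifosine and 0.23 with sorafenib. With both drugs it was 0.37 (interval 0.12 to 0.62), which did not pass over all genes (adjusted p = 0.156 by limma, and 0.0848 in the 9 arrays). Array weights, which count the arrays that stood apart for less, brought DEPTOR to 0.45 (adjusted p = 0.0346), the 1 setting of 20 in which it passed in this comparison. A dimmer DEPTOR probe read 291, 259 and 275 in controls, 303, 396 and 475 with perifosine, 327, 249 and 369 with sorafenib, and 346, 345 and 300 with both drugs. It passed in no comparison, and its highest value was a perifosine array. The log2 change of this probe was 0.49 with perifosine (adjusted p = 0.533 by limma), 0.18 with sorafenib (0.75) and 0.26 with both drugs (0.663).

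AKT1S1 (PRAS40), which releases mTORC1 when AKT phosphorylates it, was at 789, 821 and 584 in controls and at 704, 1512 and 1021 with perifosine. With sorafenib it was at 749, 376 and 771, and with both drugs at 494, 610 and 517. Each combination array lay below each perifosine array, a log2 difference of -0.93 (interval -1.60 to -0.27). It did not pass in 12 arrays (adjusted p = 0.181 by limma) and passed in the 9 arrays, where AKT1S1 fell by 0.87 (adjusted p = 0.0377). It also passed with array weights (adjusted p = 0.0365) and without sorafenib B (0.0328), an array that enters this comparison only through the shared spread, and in none of the other 18 alternatives. Against control AKT1S1 was at 0.51 with perifosine (adjusted p = 0.841), -0.27 with sorafenib (0.779) and -0.43 with both drugs (0.672). The difference between combination and perifosine was -0.66 without perifosine B, the brightest array, and -1.21 without perifosine A.

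TSC1 and TSC2 encode the 2 main subunits of the complex that switches RHEB off. TSC1 was at 1553, 1710 and 1853 in controls, at 1712, 1693 and 1438 with perifosine, at 1487, 3021 and 1566 with sorafenib and at 1947, 2033 and 1991 with both drugs. The value of 3021 belongs to sorafenib B, 0.99 above its mates on the log2 scale, and the combination arrays lay above all controls and all perifosine arrays. Its log2 change with both drugs was 0.23 (interval -0.25 to 0.71, adjusted p = 0.782 by limma) in 12 arrays and 0.30 (interval 0.034 to 0.57, adjusted p = 0.188) in 9. With perifosine TSC1 was at -0.080 and with sorafenib at 0.17. Neither of the other TSC1 probes passed in any comparison.

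TSC2 was at 1607, 1083 and 753 in controls, at 1259, 1496 and 1336 with perifosine, at 2044, 1521 and 1708 with sorafenib and at 1087, 1666 and 1394 with both drugs. The lowest control is replicate C, and the sorafenib range overlapped that of the controls through control A. The log2 change with sorafenib was 0.67 (interval 0.14 to 1.20, adjusted p = 0.194 by limma) and 0.50 in the 9 arrays (adjusted p = 0.142), so TSC2 did not pass. With perifosine it was at 0.31 and with both drugs at 0.32, and in the 9 arrays, without control C, at 0.044 and 0.21. A second TSC2 probe stayed between 238 and 327, where 20.2% of all probes were dimmer, and gave no further measurement of the gene.

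EIF4EBP1 encodes 4E-BP1, a translation repressor that binds the cap-binding protein eIF4E until mTORC1 phosphorylates it. Its intensity was 1511, 1394 and 807 in controls and 1502, 1381 and 1231 with perifosine. With sorafenib it was 2173, 764 and 2262, and with both drugs 703, 2141 and 2156. The values of 807, 764 and 703 are those of control C, sorafenib B and combination A, and they are the 3 lowest of all 12. On these arrays EIF4EBP1 differed from its group mates by -0.85, -1.54 and -1.61 on the log2 scale. TSC2 (-0.81, -0.30 and -0.49) and AKT1S1 (-0.46, -1.01 and -0.19) were also below their mates on all 3 arrays. What sets these arrays apart was not tested.

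With 12 arrays EIF4EBP1 passed in no comparison, and its interval for sorafenib ran from -0.66 to 1.43 around a log2 change of 0.38. It was at 0.20 with perifosine and 0.31 with both drugs. Over the 9 arrays EIF4EBP1 rose with sorafenib by 0.61 (SE 0.12, adjusted p = 0.0163 by limma) and with both drugs by 0.57 (SE 0.12, adjusted p = 0.0192). It also rose there in the combination against perifosine, by 0.65 (adjusted p = 0.00406), and was at -0.087 with perifosine alone (adjusted p = 0.827). Its 4 arrays with sorafenib then lay between 2141 and 2262 and its 5 arrays without it between 1231 and 1511. Of the 21 alternatives only this one gave calls for EIF4EBP1, so they rest on leaving out the 3 arrays together.

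**Figure D3:**
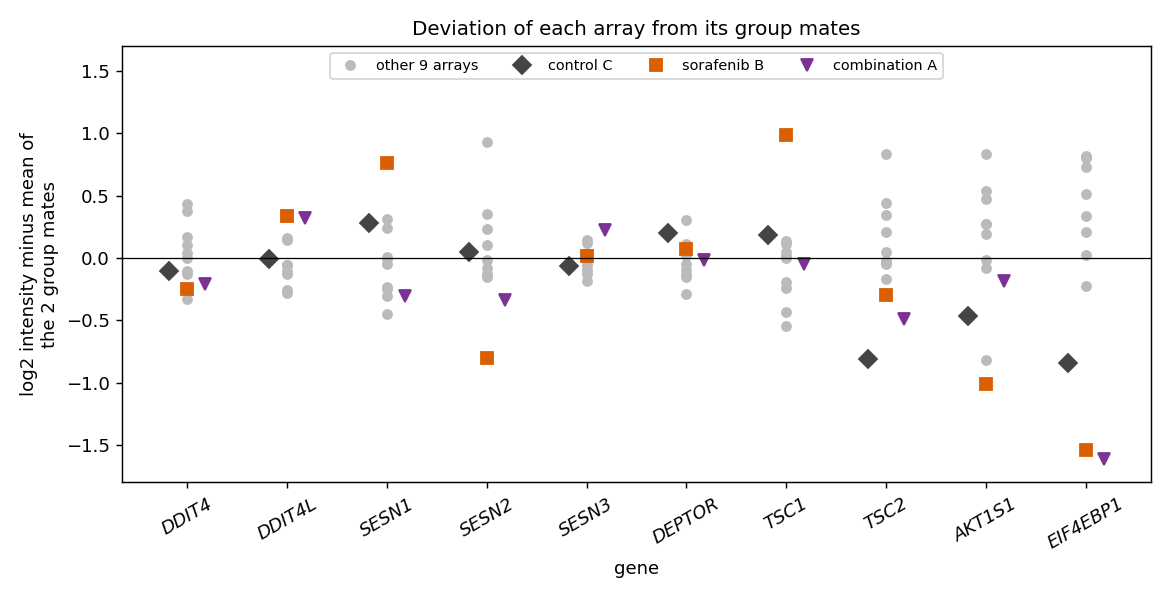
Log2 intensity of each array minus the mean of its 2 group mates (y axis) for the 10 genes (x axis). Coloured symbols are control C, sorafenib B and combination A, and grey points the other 9 arrays. EIF4EBP1 lies at -0.85, -1.54 and -1.61 on the coloured arrays, TSC1 at 0.99 on sorafenib B, and DDIT4 between -0.25 and -0.10.

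Other genes of the pathway were read from 5 lists, chosen with earlier results of these data known. A list of 5 genes held MTOR, RPTOR and MLST8 of the mTORC1 complex, its activator RHEB, and TBC1D7, which belongs to the TSC complex and so to the brakes on RHEB. Of these 0 passed in any comparison, with 12 or with 9 arrays. At most 2.25% and 6.92% of all genes passed there, so 0 of 5 is near the background. Their median over all 5 log2 change was 0.12 with perifosine, -0.16 with sorafenib and -0.060 with both drugs, beside the medians over all genes near 0 given above. Of 24 measured genes of amino acid sensing, 1 rose with sorafenib, where 2.25% of all genes passed. This was RRAGB, a Rag GTPase that brings mTORC1 to the lysosome. It was at 866, 944 and 1142 in controls and at 1500, 2111 and 1507 with sorafenib, a log2 change of 0.78 (adjusted p = 0.0296 by limma). RRAGB, again 1 of 24, also rose by 0.78 with both drugs (adjusted p = 0.0332), against 1.82% of all genes, and the list's medians were 0.11 and 0.12 in these comparisons. FNIP1, a folliculin partner, also rose with both drugs over the 9 arrays (0.44, adjusted p = 0.0477), which makes 2 of 24 against 5.9% of all genes. In the combination against perifosine RRAGB rose (0.70, adjusted p = 0.0477), and over the 9 arrays so did NPRL2, a GATOR1 subunit (0.40, adjusted p = 0.0396), and FNIP1 (0.39, adjusted p = 0.0466). That is 1 of 24 against 2.2% of all genes with 12 arrays and 3 of 24 against 6.92% with 9.

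Among 22 measured genes of the PI3K-AKT, mTORC2 and AMPK inputs, PRKAB2, an AMPK subunit, rose with sorafenib (0.87, adjusted p = 0.031 by limma) and 0 fell, against 2.25% of all genes. The list's median was -0.15 with perifosine, -0.074 with sorafenib and -0.081 with both drugs. In the combination against perifosine 2 of 22 rose, against 2.2% of all genes. They were INPP4B, a phosphoinositide phosphatase that dampens AKT (0.95, adjusted p = 0.0053), and PRKAG2, another AMPK subunit (0.66, adjusted p = 0.0176). INPP4B was at 831, 831 and 671 with perifosine, below its controls at 1369, 1340 and 1319, and it fell with perifosine in the 9 arrays (-0.81, adjusted p = 0.00698). PRKAG2 did so as well (-0.57, adjusted p = 0.0278), which makes 2 of 22 against 1.55% of all genes. PHLPP2, an AKT phosphatase, fell over the 9 arrays with sorafenib (-0.51, adjusted p = 0.0314), with both drugs (-0.59, adjusted p = 0.0136) and in the combination against perifosine (-0.62, adjusted p = 0.00479). The shares of all genes that passed in these comparisons were 4.65%, 5.9% and 6.92%.

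Of 18 genes listed as mTORC1 outputs, 0 passed with 12 arrays, where at most 2.25% of all genes passed in any comparison. The count is thus near the background. Transcripts were read here, not the action of mTORC1 on the proteins they encode. The median of these 18 genes was -0.020 with perifosine, 0.018 with sorafenib and 0.12 with both drugs. LPIN1, a lipid enzyme, rose over the 9 arrays with sorafenib (0.50, adjusted p = 0.0465 by limma), as 1 of 18 against 4.65% of all genes. With 12 arrays it was at 0.24 (adjusted p = 0.551 by limma). Control C, left out of the 9, was its highest control at 12794, beside 8074 and 9230. Its sorafenib arrays A, B and C were at 11170, 10447 and 13344, and B was left out as well. With both drugs the kinase EEF2K, which slows translation elongation, rose over the 9 arrays by 0.55 (adjusted p = 0.0278 by limma). PDCD4, an inhibitor of translation initiation, rose there by 0.47 (adjusted p = 0.0415), which makes 2 of 18 against 5.9%. With 12 arrays EEF2K was at 0.41 (adjusted p = 0.36 by limma) and PDCD4 at 0.43 (0.169). Of 12 measured transcription factors known to act on DDIT4 or SESN2, 0 passed with 12 arrays. At most 2.25% of all genes passed there in any comparison, so this count too is near the background. With these arrays the list's median was -0.061 with perifosine, 0.36 with sorafenib and 0.38 with both drugs. Over the 9 arrays DDIT3 (CHOP), a stress factor, rose with sorafenib (0.81, adjusted p = 0.00411) and with both drugs (1.07, adjusted p = 0.000703). With 12 arrays DDIT3 was at 0.38 (adjusted p = 0.691 by limma) and at 0.89 (0.266) in these comparisons. ATF4, the main factor of the integrated stress response, rose with both drugs (0.80, adjusted p = 0.00314), where it was at 66733 and 70326 against 38552 and 40424 in controls. On control C and combination A, left out there, ATF4 was at 57410 and 68945. Its values lay close to the highest intensity of any probe, 71906, where the scale leaves little room, so the size of this rise is uncertain. CEBPG, a partner of ATF4, rose with sorafenib (0.59, adjusted p = 0.0275) and with both (0.66, adjusted p = 0.0137). CEBPB rose with perifosine (0.64, adjusted p = 0.0173) and with both drugs (0.49, adjusted p = 0.0417). With 12 arrays and both drugs CEBPG was at 0.72 (adjusted p = 0.115 by limma) and CEBPB at 0.59 (0.136). Over the 9 arrays 1 of 12 factors thus rose with perifosine against 1.55% of all genes, 2 with sorafenib against 4.65%, and 4 with both drugs against 5.9%. DDIT3 was at 963 on sorafenib B against 2429 and 2918 on its mates, and at 1936 on combination A against 3226 and 3146. In the combination against perifosine 4 of 12 factors rose over the 9 arrays and 1 fell, where 6.92% of all genes passed in either direction. The fall was that of FOXO1 (-0.73, adjusted p = 0.0253), while DDIT3 (0.72), CEBPG (0.66), FOXO3 (0.64) and ATF4 (0.61) rose, with adjusted p of at most 0.00581 by limma.

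The genes whose log2 intensity followed DDIT4 most closely over the 12 arrays, among genes of mean log2 intensity 9 or more, were SLC3A2 (Pearson r = 0.971), APBB3 (0.971), KCNS3 (0.970), STX16 (0.963) and PCK2 (0.963). SLC3A2 encodes the heavy chain of several amino acid transporters, and PCK2 is a mitochondrial enzyme of gluconeogenesis. The arrays share their treatment groups, so r reflects the 4 group levels as well as single arrays. These genes were chosen for following DDIT4 over the same arrays, so rises in the groups where DDIT4 rose are part of that choice. By Spearman correlation 1 of these 5, SLC3A2 (rho 0.972), was among the closest 5. Their steps were smaller than the DDIT4 changes: with both drugs SLC3A2 rose by 0.75, APBB3 by 0.84, KCNS3 by 0.62 and PCK2 by 1.92, and STX16 was at 0.36 (adjusted p = 0.0714 by limma). With perifosine alone 0 of the 5 passed, where 0.297% of all genes did, and PCK2 was at 0.67 (adjusted p = 0.241 by limma).

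For SESN2 the closest genes were TSPAN31 (r = 0.922), STK32A (0.920), ROBO3 (0.912), DOCK6 (0.905) and KIF3C (0.900). Of these DOCK6 alone passed with both drugs, at a log2 rise of 0.67 (adjusted p = 0.0319 by limma), where 1.82% of all genes passed. The 5 genes were chosen for following SESN2 over these same arrays. Rises with the drugs and the low values shared with SESN2 on sorafenib B are therefore part of that choice. DDIT4 and SESN2 correlated with each other at r = 0.720 over the 12 arrays.

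**Figure D4:**
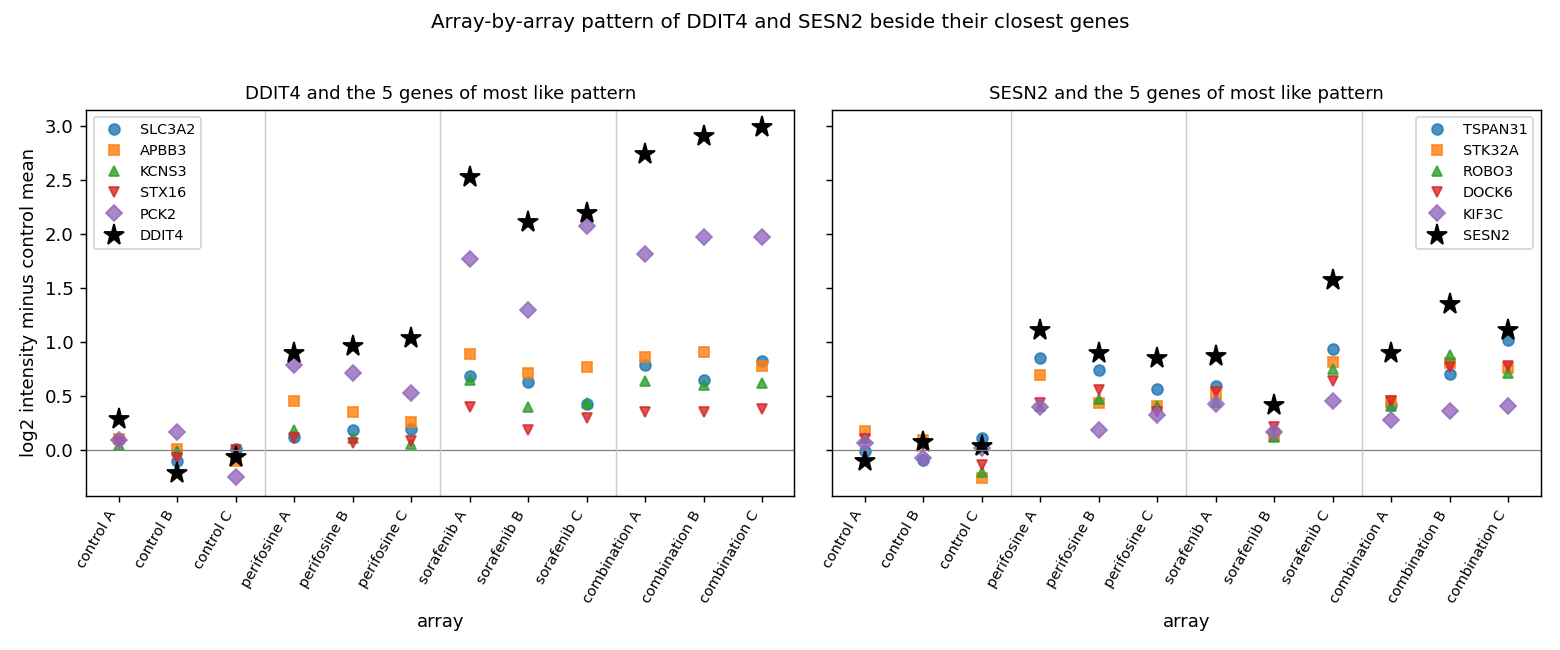
Log2 intensity minus the mean of the controls (y axis) on each of the 12 arrays (x axis) for DDIT4 (left) and SESN2 (right), drawn as stars, and for the 5 genes of most like pattern. DDIT4 and PCK2 take their highest values with sorafenib or both drugs, and SESN2 and its 5 genes are lowest on sorafenib B among the treated arrays.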

How the data were processed

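RNA from 12 samples was labelled and read on an Illumina beadchip, per the labels' protocols. The authors used BeadStudio, per the submitters' processing notes, which give neither version nor normalization setting. Intensity values as deposited by the authors are linear, and the sorted columns differ by at most 2.35% between arrays, so the authors' values look quantile normalized without background subtraction. A second table, of signals without normalization, has 12 columns whose names match no sample, and it was not used here.

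Probes were named through the platform annotation: of 48803 probes 28098 had exactly 1 gene symbol. No symbol changed when looked up in RefSeq (GRCh38.p14). Each of 18852 genes was represented by its brightest probe on average over the arrays. Group means of log2 intensity were fitted to all 12 arrays with limma 3.58.1 in R 4.3.3 (8 residual degrees of freedom, 5 with 9 arrays), with Benjamini-Hochberg adjustment across all genes. The fit was run on simulated data with the same spread in all groups and no array that stood apart. That setting differs from these arrays, so it does not bear on how the 3 arrays affect the calls.

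The members and lists were chosen with earlier results of these data known. All members are named in each comparison, up to 4 called genes of each list and comparison (ATF4 in the combination against perifosine goes beyond that and was chosen after its value was seen), and the 5 genes nearest to DDIT4 and to SESN2. Genes named beyond that are marker genes. Arrays stood apart where their group mates correlated better with each other by over 0.005 across all genes, a limit chosen with these data in view. Alternatives changed the probe rule, background correction (normexp, offset 50), filter (mean log2 intensity of at least 9), normalization, variance prior, array weights, block and samples fitted. Each probe of TSC1, TSC2 and DEPTOR was also tested on its own, an alternative chosen after seeing the data.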

Additional observations from a re-analysis of the deposited data

How the results depend on the processing

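Over the 21 alternatives (20 for the interaction) the number of members past the threshold stayed at 0 for the combination against sorafenib and for the interaction. With perifosine it was 1, and 0 after normexp correction or with the replicate block, 2 with array weights, with only the groups compared, or in the 9 arrays, and 0 to 2 when each array was left out in turn. With sorafenib it was 1, and 2 after normexp correction, with the filter at log2 9 or with array weights, 3 in the 9 arrays, and 1 to 2 without single arrays. With both drugs it was 2, and 1 with the replicate block, 3 with array weights or in the 9 arrays, and 1 to 2 without single arrays. For the combination against perifosine it was 1, and 2 with array weights, 3 in the 9 arrays, and 1 to 2 without single arrays. The causes were not tested. Replicate letters were checked as pairs: the correlation of deviations between arrays of the same letter exceeded 0.1 in 7 of 18 pairs. The own letter was nearest in 6. The 3 arrays that stood apart bear different letters and can weigh on these deviations, so the check cannot decide whether letters mark pairs. With the replicate block DDIT4 with perifosine had an adjusted p of 0.0534 and SESN2 with both drugs one of 0.0663 by limma. No member reversed a call. In 1256 single values 17 lost and 17 gained a call, and 71 values without a call changed sign. Counts over all genes moved more. They were 56, 425, 343 and 414 for perifosine, sorafenib, the combination and the combination against perifosine, 293, 876, 1112 and 1304 in the 9 arrays, and 349, 1249, 1181 and 1306 with array weights. After normexp correction they were 29, 234, 202 and 315, and with an intensity trend and robust prior 34, 254, 235 and 316. The replicate block gave 37, 335, 274 and 349. When only the arrays compared were fitted they were 126, 10, 372 and 843. The lowest counts without 1 array were 11 (perifosine B), 111 (control B), 89 (control B) and 215 (perifosine C), and without sorafenib B they were 155, 570, 1046 and 1050. The interaction had 3 genes, 15 with array weights and 1 with the filter. By Spearman correlation 1 of the 5 genes nearest to DDIT4 was among the nearest 5.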
